A study of Mus musculus with 4 samples.

Results

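Distal chromatin regions that were open in PD1+ CD8 T cells of the tumor and much less open in Cytotoxic CD8 T cells of the same tumor were followed into normal cecal tissue. They are 895 windows of 500 bp, here called tiles. A tile was taken when it lay on chromosomes 1 to 19, more than 1 kb from either end of any protein-coding gene, held 30 or more fragments from tumor PD1+ CD8 cells and had at least 3 times the value of tumor Cytotoxic CD8 cells. Of 4921494 tiles on these chromosomes, 4737687 were distal in this sense, 37497 of them had the 30 fragments and 895 of those, or 2.39%, passed the fold. The values are fragments per 1000000 fragments of the same cell label (FPM), and 0.5 FPM was added to both sides of each ratio used to choose the tiles. The tiles were thus chosen by their tumor PD1+ CD8 and tumor Cytotoxic CD8 values, which are given below only as a description.

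The study paired RNA and ATAC profiling of single nuclei in T cells sorted from AKP tumors and from adjacent tumor-free cecum. AKP tumors grow from mouse intestinal organoids engineered to carry tumor mutations, loss of Apc and Trp53 among them, transplanted into the cecal wall, and were taken 4 weeks later; all mice carried such a tumor, so the cecum is not that of a tumor-free animal. Each tissue gave 1 ATAC library, no treatment is labelled, and the labels give neither strain, sex and age nor how many animals were pooled. The authors named 17 cell labels from the RNA of the same nuclei, and 15621 nuclei carry one, of which 8466 are in the tumor and 7155 in the cecum library. PD1+ CD8 comprised 1180 tumor and 499 cecum cells, and Cytotoxic CD8 467 and 504. With 1 library per tissue there is no replicate, so no difference was tested, and every interval printed below is a 95% interval that covers counting error only.

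ATAC-seq reads where a transposase can cut DNA, so the number of fragments ending in a tile measures how accessible it is. Accessible sites far from promoters are often enhancers, which bind transcription factors and act on promoters at a distance, and they separate related cell types better than promoters do. PD-1 is an inhibitory receptor carried by CD8 T cells under lasting antigen stimulation, in tumors often by exhausted cells. Cytotoxic CD8 cells carry granzymes and perforin, and CCR7+ CD8 cells are naive or central memory cells that travel through lymph nodes.

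Sequence could be shown for tiles that overlap the window around an annotated transcription start. Of the 895 tiles, 18 overlapped the start windows of 17 genes in RefSeq GRCm38.p6, each window being 300 bases, from 250 before to 50 after a start. Such starts can lie in or beside a distal tile because they belong to non-coding genes or to alternative transcripts inside a coding gene. The windows of 5 genes lay wholly within tiles of the set, and 4 are printed 5′ to 3′ on their own strand, the first because its 2 tiles had the most fragments, the second because it holds 3 of the motifs searched, and the last 2 because they lie side by side at Lhx2, a LIM-homeobox transcription factor gene. Capitals mark exact matches to the motif letters given below, on either strand. Gm51657 is at chr9:96896856-96897155 on the plus strand, Gm38748 at chr5:146857606-146857905 on the plus strand, Lhx2 at chr2:38351058-38351357 on the plus strand and Gm27197 at chr2:38350691-38350990 on the minus strand.
Gm51657: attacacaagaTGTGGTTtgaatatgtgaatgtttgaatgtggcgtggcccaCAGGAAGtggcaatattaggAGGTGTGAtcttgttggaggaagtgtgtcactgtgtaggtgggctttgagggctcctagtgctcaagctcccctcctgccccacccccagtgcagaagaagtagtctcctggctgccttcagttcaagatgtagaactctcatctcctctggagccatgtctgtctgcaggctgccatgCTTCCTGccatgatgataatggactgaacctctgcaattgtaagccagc
Gm38748: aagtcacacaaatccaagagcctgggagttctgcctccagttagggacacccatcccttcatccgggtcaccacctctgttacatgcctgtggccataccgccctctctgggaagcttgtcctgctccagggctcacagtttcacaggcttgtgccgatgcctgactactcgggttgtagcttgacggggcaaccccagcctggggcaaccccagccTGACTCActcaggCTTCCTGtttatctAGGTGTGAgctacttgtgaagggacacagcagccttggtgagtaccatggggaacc
Lhx2: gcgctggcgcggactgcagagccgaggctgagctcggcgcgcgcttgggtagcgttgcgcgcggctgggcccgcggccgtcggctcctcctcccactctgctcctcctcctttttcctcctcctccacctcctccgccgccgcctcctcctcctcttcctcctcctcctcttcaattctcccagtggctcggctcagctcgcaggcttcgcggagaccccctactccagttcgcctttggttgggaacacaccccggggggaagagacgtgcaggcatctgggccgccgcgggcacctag
Gm27197: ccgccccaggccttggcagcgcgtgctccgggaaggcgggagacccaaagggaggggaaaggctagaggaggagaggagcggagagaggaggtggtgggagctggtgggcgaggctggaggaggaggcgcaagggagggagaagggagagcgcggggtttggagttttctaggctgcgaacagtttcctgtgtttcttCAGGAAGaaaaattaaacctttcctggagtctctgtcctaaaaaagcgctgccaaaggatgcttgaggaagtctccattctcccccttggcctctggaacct

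Fragment counts here and below are not scaled, and the tumor library had 9148760 PD1+ CD8 fragments in all against 3754731 from Cytotoxic CD8. A ratio of tumor counts is therefore larger than the ratio of FPM. The 2 tiles under the Gm51657 window held 145 and 63 fragments from tumor PD1+ CD8 cells against 12 and 4 from tumor Cytotoxic CD8 cells. In the cecum they held 53 and 23 against 16 and 5. The tile of Gm38748 had 53 against 4 fragments in the tumor and 8 against 3 in the cecum. At Lhx2 the tile under the coding gene's window had 58 against 6 in the tumor and 19 against 2 in the cecum, and the neighbouring tile under Gm27197 had 33 against 3 and 12 against 0. PD1+ CD8 thus had the larger count at each of these starts in the cecum, while in the tumor this was fixed by the choice. Of the tiles whose windows are not printed, those of LOC105247329 with 7 against 8 and Gm46252 with 6 against 12 went the other way in the cecum. The Gm46252 tile holds only 6 bases of that window, and not the start. Of 6 motifs searched on both strands, the RUNX letters AACCACA were in 2 of the 17 windows and in 5.27% of all 32817 start windows, the AP-1 letters TGACTCA in 5 and in 5.2%, the T-box letters AGGTGTGA in 2 and in 1.27%, and the ETS letters CAGGAAG in 6 and in 13.3%. The TCF/LEF letters CTTTGAA, in 5.14% of all windows, and the NR4A letters AAAGGTCA, in 1.51%, were in none of the 17. The letters were counted over whole windows, and only 5 of the 17 windows lay wholly within tiles of the set. Some matches in the other windows therefore lay outside the tiles, such as the AP-1 letters of Gm46252. No 2 of the marked matches overlap, and a match is a description of the letters only.

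In the tumor, which chose the tiles, a tile held a median of 48 fragments from PD1+ CD8 cells (5.25 FPM) and 4 from Cytotoxic CD8 cells (1.07 FPM), and 28 tiles had no Cytotoxic CD8 fragment. Just inside the fold were tiles near Mab21l3 and within Pitpnm2, both with 75 against 9 fragments, and within Cfdp1 with 97 against 12. Just outside were tiles near Ercc6l2 with 53 against 6 and near Zyx with 148 against 19. The fold is one of FPM with 0.5 FPM added, so these unscaled counts differ by more than 3 times.

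The cecum library took no part in the choice, and there too the tiles were more open in PD1+ CD8 than in Cytotoxic CD8 cells. A tile held a median of 16 fragments from cecum PD1+ CD8 cells (4.44 FPM) and 6 from cecum Cytotoxic CD8 cells (1.77 FPM). The median log2 ratio was 1.25, with quartiles of 0.69 and 1.84 and a range from -1.10 to 3.72. Over the other 36602 distal tiles with 30 tumor PD1+ CD8 fragments it was 0.04, and over the 2201 of these that reached 2 but not 3 times in the tumor it was 0.70. PD1+ CD8 was above Cytotoxic CD8 in 837 of the 895 tiles (93.5%), against 54.4% of all 37497 tiles. The ratio reached 3 in 318 tiles (35.5%), against 2.43%, and the counting interval lay above equality in 461 (51.5%), against 8.92%. It lay below equality in 1 tile, against 5.68% of all tiles. Among the 518 tiles with at least 20 fragments over both cecum labels, 499 were above.

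**Figure D1:**
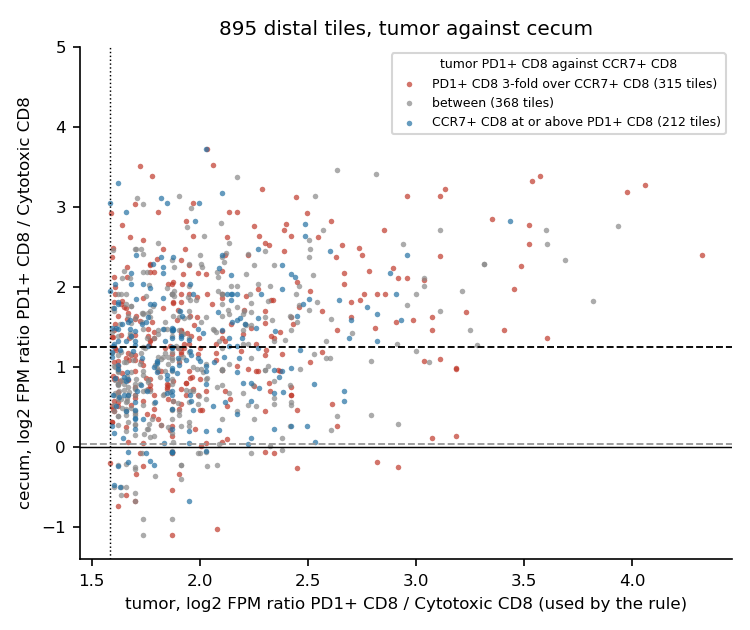
Each point is 1 of the 895 tiles. The x axis is the tumor log2 ratio of PD1+ CD8 over Cytotoxic CD8 FPM (0.5 FPM added), which chose the tiles and so begins at the dotted line, a ratio of 3. The y axis is the same ratio in the cecum. The black dashed line is the median of the tiles, 1.25, and the grey dashed line that of the other distal tiles, 0.04. Colours give the tumor level of CCR7+ CD8 cells relative to PD1+ CD8 cells, and points of all 3 colours lie mostly above 0.

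The fragments of a tile came from many cells in the tumor, as the minimum of 30 fragments requires. A tile had fragments in a median of 42 tumor PD1+ CD8 cells, with a range of 23 to 316, and in 15 cecum PD1+ CD8 cells, with a range of 1 to 104, and a cell with any had a median of 1.13 and 1.11 fragments, so these numbers follow the fragment counts. Among cells with at least 1000 fragments, the median cecum PD1+ CD8 cell had 46.1 of every 10000 fragments in the tiles, with 10th and 90th percentiles of 25.3 and 72.6. The median cecum Cytotoxic CD8 cell had 16.1, with percentiles of 6.96 and 31.2, so the upper tail of the latter overlapped the lower tail of the former. In the other distal tiles both kinds of cell had nearly the same share, with medians of 29.5% and 29.3% of a cell's fragments. Cells of 1 library are not replicates, so these quantiles describe cells and not error.

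Fragments from the tiles were often short. In cecum PD1+ CD8 cells 49.95% of them were shorter than the DNA wrapped around a nucleosome, against 42.3% of all fragments of that label and 48.8% in the other distal tiles. In cecum Cytotoxic CD8 cells the share was 47.0% in the tiles and 50.1% in the others. Tumor PD1+ CD8 cells had 54.0% and 52.6%, and tumor Cytotoxic CD8 cells 50.5% and 53.6%. The share in the tiles was thus above that of other distal tiles in PD1+ CD8 cells and below it in Cytotoxic CD8 cells of both tissues.

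Adjacent tiles were merged into 768 regions to trace the signal around them. Of these 647 were single tiles, 115 were pairs and 6 were runs of 3. In the cecum the density of fragment ends (per 1000000 fragments, per region and 50-bp bin) peaked at 1.03 in PD1+ CD8 cells and averaged 0.153 beyond 2 kb from the centre. The peak was 0.374 in Cytotoxic CD8 cells, whose outer mean was 0.116. In the tumor the highest bins were 1.26 and 0.235. Innate-like T#2 (0.956) and CCR7+ CD8 cells (0.939) peaked in the cecum at nearly the height of PD1+ CD8 cells, while CD8aa (0.270) and Cytotoxic gdT cells (0.271) stayed below Cytotoxic CD8 cells at the centre. PD1+ CD8, Innate-like T#2 and CCR7+ CD8 cells rose clearly above their surroundings at the centre in both libraries. Tumor Cytotoxic CD8 cells had no distinct peak, their centre being little above the highest bins on one flank, and the rise in CD8aa and Cytotoxic gdT cells was shallow.

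**Figure D2:**
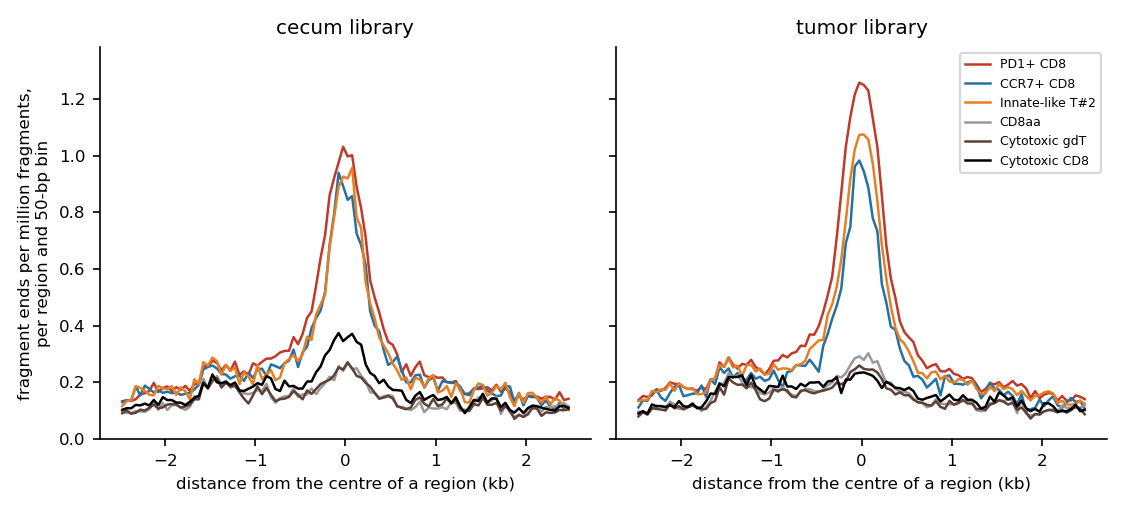
Fragment ends per 1000000 fragments of a label, per region and 50-bp bin (y axis), against distance from the centre of the 768 merged regions in kb (x axis), for 6 labels of the cecum library (left) and of the tumor library (right), on 1 scale. PD1+ CD8 has the highest peak in both, 1.03 and 1.26; the tumor PD1+ CD8 and Cytotoxic CD8 lines were fixed in order by the choice of tiles.

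The other labels fell into an order that was much alike in both tissues. Summed over the 895 tiles, the cecum values were 4560 FPM in PD1+ CD8, 3840 in Innate-like T#2, 3777 in CCR7+ CD8, 2934 in CCR7+ CD4, 2769 in newly activated CD4 and 2681 in Tfh-like cells. They were 2394 in Mucosal Th1, 2345 in PD1+ CD4 (14 cells only), 2144 in IL10- Treg, 2026 in Rorgt gdT, 1987 in Th17 and 1828 in IL10+ Treg cells. The lowest were Cytotoxic CD8 with 1739, Innate-like T#1 with 1689, Th2 with 1639, CD8aa with 1196 and Cytotoxic gdT with 1190. Neighbours whose counting intervals overlapped included Innate-like T#2 and CCR7+ CD8 (3723 to 3960 and 3671 to 3885), Innate-like T#1 and Th2 (1661 to 1717 and 1535 to 1747), and CD8aa and Cytotoxic gdT (1150 to 1243 and 1151 to 1230). By these sums the tiles were next most open in Innate-like T#2 and CCR7+ cells, and least open in CD8aa and Cytotoxic gdT cells.

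Relative to Cytotoxic CD8 cells of the same tissue, cecum PD1+ CD8 was 2.62-fold higher over the tiles, log2 1.39 with an interval of 1.35 to 1.43, while over the other distal tiles the log2 ratio was 0.00. Tile by tile, Innate-like T#2 was above Cytotoxic CD8 in 538 of the 895 tiles in the cecum (60.1%, against 47.0% of all 37497), Mucosal Th1 in 527 (58.9%, against 51.7%), CCR7+ CD8 in 480 (53.6%, against 44.2%), CCR7+ CD4 in 399 (44.6%, against 39.6%), Cytotoxic gdT in 280 (31.3%, against 47.5%) and CD8aa in 244 (27.3%, against 46.5%). By number of tiles Mucosal Th1 came above both CCR7+ labels, unlike in the sums. Its share over all 37497 tiles was also the highest of these labels, so the number of tiles does not rank them. Over the tiles together Cytotoxic gdT (log2 -0.55) and CD8aa (-0.54) were below Cytotoxic CD8. In the tumor the values were 5531 FPM in PD1+ CD8, 4437 in Innate-like T#2, 3833 in CCR7+ CD8, 1362 in CD8aa, 1204 in Cytotoxic gdT and 1095 in Cytotoxic CD8 cells. There all 16 other labels were above Cytotoxic CD8, but the tiles had been taken for low values in that label, so this count is partly fixed by the choice. Cytotoxic CD8 was also the only label of the 17 whose value was lower in the tumor than in the cecum, and that value too took part in the choice.

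**Figure D3:**
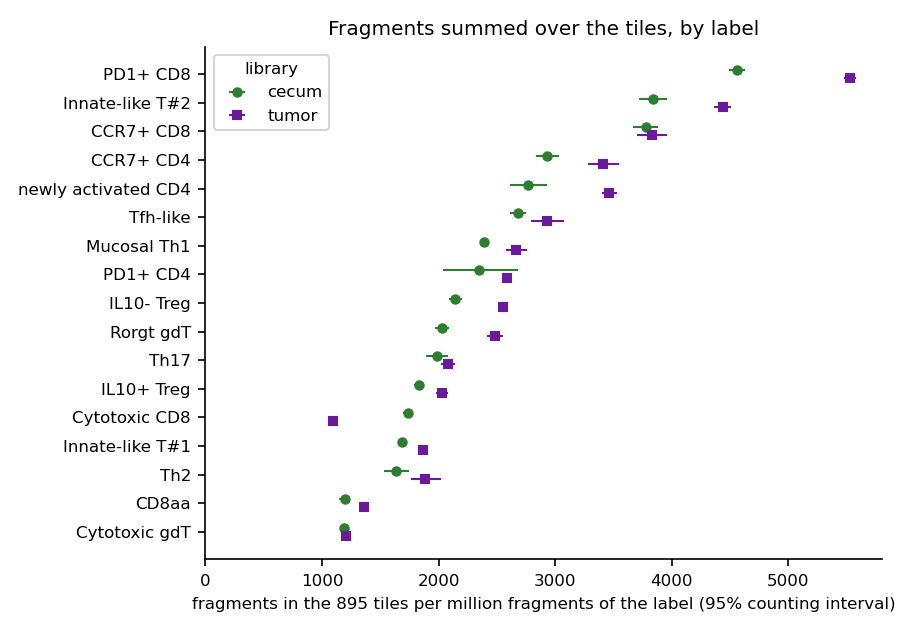
Fragments summed over the 895 tiles per 1000000 fragments of each label (x axis), for the 17 labels (y axis) in the cecum (circles) and the tumor (squares), with 95% counting intervals as bars. In the cecum PD1+ CD8 is highest at 4560 and Cytotoxic gdT lowest at 1190; the tumor PD1+ CD8 and Cytotoxic CD8 squares chose the tiles.

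Tile by tile, PD1+ CD8 was the most open of the 16 cecum labels with at least 50 cells in 280 tiles (31.3%), whereas it led 6.1% of the other distal tiles. Innate-like T#2 led 134 tiles and CCR7+ CD8 118 (13.2%), against 9.29% and 8.31% of the others. Newly activated CD4 with 80 (8.94%) and CCR7+ CD4 with 67 (7.49%) led no larger a share than among the others, 11.7% and 7.61%. In the tumor PD1+ CD8 led 339 tiles (37.9%, against 5.16% of the others), a count partly fixed by the choice. Innate-like T#2 led 127 there (14.2%, against 6.1%). Of the 339 tiles, 218 were led by PD1+ CD8 in the cecum too. This overlap was not counted over the other distal tiles, so no excess can be read from it. The FPM values of a small label move in larger steps, and the 14 cecum PD1+ CD4 cells were left out of this ranking.

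The mirrored rule, 30 or more tumor Cytotoxic CD8 fragments and 3 times the value of tumor PD1+ CD8, gave 160 tiles of 14294. In the cecum these had 1608 FPM in Cytotoxic CD8 and 608 in PD1+ CD8 cells, a log2 ratio of -1.404 with an interval of -1.48 to -1.33. Cytotoxic gdT with 2154 FPM and CD8aa with 1982 were above Cytotoxic CD8 in the mirrored set, the opposite of their place in the 895 tiles. So both sets kept their direction in the cecum.

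The 895 tiles ranged widely in their CCR7+ CD8 level. They were split into 3 kinds by the tumor level of CCR7+ CD8 cells, a split chosen after values had been seen. The kinds are cuts of a continuous ratio of PD1+ CD8 over CCR7+ CD8, with a median log2 of 1.09 and quartiles of 0.05 and 2.33. That ratio uses the tumor PD1+ CD8 value that chose the tiles. Tumor CCR7+ CD8 had 137 cells, with 170 fragments over all 315 tiles of the first kind, so the kind of a single tile rests on few fragments. In 315 tiles tumor PD1+ CD8 was at least 3 times CCR7+ CD8, in 212 CCR7+ CD8 was at or above PD1+ CD8, and 368 lay between. In the cecum PD1+ CD8 was above CCR7+ CD8 in 298 of the 315 tiles, with a median log2 ratio of 2.49, against 58.5% of all 37497 tiles. It was below CCR7+ CD8 in 156 of the 212, with a median of -0.67, against 41.5% of all. The shares over all tiles are of tiles not split by their tumor CCR7+ CD8 level, so they are not a like comparison. Against Cytotoxic CD8, cecum PD1+ CD8 was above in 296 of the 315 tiles, 341 of the 368 and 200 of the 212. The ratio to Cytotoxic CD8 was thus similar in the 3 kinds, while the ratio to CCR7+ CD8 changed sign.

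In the cecum the 315 tiles had 311 FPM in CCR7+ CD8 and 202 in CCR7+ CD4 cells, below the 573 of Cytotoxic CD8 cells. On the log2 scale over Cytotoxic CD8 these were -0.88 and -1.50, and PD1+ CD8 with 1678 FPM was at 1.55. The next labels were PD1+ CD4 with 763 FPM (14 cells), Mucosal Th1 with 706, Innate-like T#2 with 669, newly activated CD4 with 597 and IL10- Treg with 587. The 212 tiles had 2297 FPM in CCR7+ CD8, 1781 in CCR7+ CD4, 1709 in Innate-like T#2, 1134 in PD1+ CD8 and 448 in Cytotoxic CD8 cells. Here CCR7+ CD8 was at log2 2.36 over Cytotoxic CD8 and PD1+ CD8 at 1.34. PD1+ CD8 led 166 of the 315 tiles in the cecum and 11 of the 212. The first kind was therefore highest in PD1+ CD8 cells in sum, though other labels led many of its tiles. The last was a set of sites most open in CCR7+ and Innate-like T#2 cells. PD1+ CD8 was lower there, near newly activated CD4 with 1078 FPM and Tfh-like cells with 1048, and Cytotoxic CD8 was lower still.

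**Figure D4:**
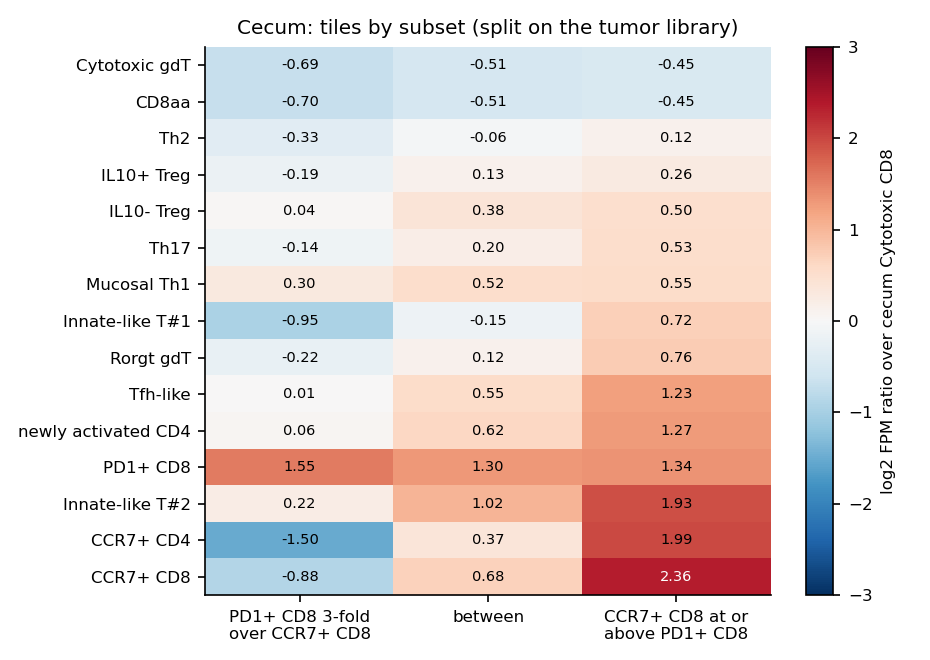
Cecum log2 FPM ratio over cecum Cytotoxic CD8 for 15 labels (rows; PD1+ CD4 with 14 cells is left out) in the 3 kinds of tile split on the tumor library (columns). PD1+ CD8 stays between 1.30 and 1.55, while CCR7+ CD8 goes from -0.88 to 2.36.

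The tiles with most fragments were open in many labels. The highest lay within Smox, the spermine oxidase gene, at chr2:131509501-131510000. It had 415 fragments from tumor PD1+ CD8 cells (45.4 FPM) and 46 from tumor Cytotoxic CD8 cells (12.2 FPM), and in the cecum 83 (23.0 FPM) and 41 (12.1 FPM). The cecum ratio was 1.90 (1.29 to 2.84). Rorgt gdT (56.9 FPM) and Innate-like T#2 cells (56.6 FPM) were higher still in the cecum, so at this tile PD1+ CD8 was neither the most nor the least open label. It was the highest of the 895 tiles also in Mucosal Th1, IL10- Treg, Th17 and Rorgt gdT cells of both libraries.

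The second, at chr8:13686501-13687000, lay 8.91 kb from Rasa3, which encodes a GTPase-activating protein for Ras and Rap. It had 329 and 20 fragments in the tumor and 88 and 22 in the cecum, where the ratio was 3.76 (2.34 to 6.31) and CCR7+ CD8 was highest with 51.2 FPM. The third was within Ndufs4, a gene of mitochondrial complex I, at chr13:114304501-114305000. It had 275 and 34 fragments in the tumor and 140 and 20 in the cecum, a ratio of 6.58 (4.11 to 11.1). PD1+ CD8 was the highest label in both libraries there, with 30.1 FPM in the tumor and 38.9 in the cecum, while CCR7+ CD8 had 6.76 and 2.36. Of the 10 tiles with most fragments, the others were within or near Spice1, Selp, Prkg1, Lrrk1, Cxcr4, Tbx4 and Nrp1, and all 10 had a cecum ratio whose interval lay above 1, from 1.76 (1.18 to 2.67) near Cxcr4, the receptor of the chemokine CXCL12, upward.

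The tiles with the highest ratio in both libraries, among those with at least 20 cecum fragments, were picked for high PD1+ CD8 values in the cecum too and are described only. A tile within Dagla, which encodes a diacylglycerol lipase that makes an endocannabinoid, at chr19:10278501-10279000, had 153 and 2 fragments in the tumor and 26 and 1 in the cecum. The cecum ratio of 24.5 rests on that 1 fragment, with an interval of 4.02 to 1003. A tile within Pbx3, a homeobox transcription factor gene, at chr2:34198501-34199000, had 105 and 2 fragments in the tumor and 27 and 1 in the cecum, a ratio of 25.4 (4.19 to 1040). The best measured of the 10 was within Suclg2, a subunit of succinyl-CoA ligase, at chr6:95712001-95712500, with 142 and 4 fragments in the tumor and 57 and 6 in the cecum. Its cecum ratio was 8.94 (3.86 to 25.4), and its PD1+ CD8 levels of 15.5 FPM in the tumor and 15.8 in the cecum were nearly equal. The others were near Add3 and Gfra2, 44.5 kb from Nrp1, 61.7 kb from Eomes, and within Spsb4, Npepps and Plxnc1. PD1+ CD8 was the most open cecum label at 8 of the 10, the exceptions being the tile in Spsb4, led by CCR7+ CD4, and that near Nrp1, led by newly activated CD4.

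At the other end, cecum PD1+ CD8 was below Cytotoxic CD8 in 58 tiles. The lowest with 20 fragments was within Katna1, which encodes the catalytic subunit of the microtubule-severing enzyme katanin, at chr10:7727001-7727500. It had 56 and 4 fragments in the tumor but 10 and 21 in the cecum, a ratio of 0.448 (0.188 to 0.994). The next, within Phf20, near Ripk2 and within Zscan12 and Csnk1g3, had ratios of 0.579 to 0.69 with intervals that included 1. Only the Katna1 tile thus went the other way beyond its counting interval, among all 895.

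PD1+ CD8 cells of the tumor were slightly more open at the tiles than those of the cecum. The median log2 ratio of tumor over cecum PD1+ CD8 was 0.30, against 0.03 in the other distal tiles, and since the tiles were taken for high tumor values this is a description. It was not particular to PD1+ CD8. Summed over the tiles, newly activated CD4 had 3465 FPM in the tumor and 2769 in the cecum, and Rorgt gdT 2482 and 2026. Only Cytotoxic CD8 was lower in the tumor. The largest difference was within Arid3a, an ARID-domain transcription factor gene, at chr10:79937001-79937500, with 118 fragments in the tumor (12.9 FPM) and 6 in the cecum (1.67 FPM). Its ratio was 7.74 (3.45 to 21.5). Innate-like T#2 cells had 48.1 FPM there in the tumor and 39.6 in the cecum, and CCR7+ CD8 cells 41.7 and 31.5, so these labels were lower in the cecum as well, but by much less than PD1+ CD8. The largest difference the other way was within Ubac2, with 33 fragments in the tumor (3.61 FPM) and 29 in the cecum (8.05 FPM), a ratio of 0.448 (0.264 to 0.765).

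The tiles were often within genes, but no more so than other distal sites. Of the 895, 513 (57.3%) lay inside the span of a protein-coding gene, against 61.8% of the other distal tiles. The median distance to the nearest gene end was 19.1 kb against 11.7 kb, and the upper quartile 45340 bp against 31730 bp. They had 607 nearest genes, of which 181 had 2 or more tiles and 13 had 5 or more. The nearest gene is only a name for the place, since an enhancer can act on a gene further away.

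Rasa3 and Plxnc1 had the most tiles, 8 each. The 8 Plxnc1 tiles all lay within the gene, which encodes a semaphorin receptor, between chr10:94847001 and 94943500. Together they had 546 fragments from tumor and 243 from cecum PD1+ CD8 cells, and their mean level was 7.46 FPM in the tumor and 8.43 in the cecum. In Cytotoxic CD8 cells it was 1.43 FPM in the tumor and 1.44 in the cecum, and in CCR7+ CD8 cells 1.13 and 0.984. All 8 were above Cytotoxic CD8 in the cecum, and 7 of them were of the kind open 3-fold over CCR7+ CD8. At its highest tile, chr10:94939001-94939500, PD1+ CD8 had 100 and Cytotoxic CD8 6 fragments in the tumor, and 51 and 4 in the cecum, a ratio of 11.99 (4.41 to 45.7), with Rorgt gdT level with PD1+ CD8 at 15.3 against 14.2 FPM.

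Dagla was the gene whose tiles were most confined to PD1+ CD8 in these libraries, among the 13 drawn below. Its 6 tiles, of 7 distal tiles with 30 fragments nearest to it, had a mean of 7.38 FPM in tumor and 3.98 in cecum PD1+ CD8 cells. Cytotoxic CD8 had 0.444 and 0.295, CCR7+ CD8 0.375 and 0.394 and Innate-like T#2 0.553 and 0.471. Tumor PD1+ CD4 cells, the other label named for PD-1, had 1.38. At 3 of the 6 tiles cecum Cytotoxic CD8 had no fragment, and against a floor of 3 counts per library PD1+ CD8 was at least 4.70-fold, 4.39-fold and 3.45-fold higher. The next highest label was PD1+ CD4 in the tumor and CD8aa in the cecum, with 0.696 FPM from 9 fragments, against 86 fragments from PD1+ CD8 cells.

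Other genes showed other patterns in the cecum. The 4 tiles nearest to Eomes, the T-box factor of memory and exhausted CD8 cells, averaged 5.97 FPM in PD1+ CD8, 2.95 in CCR7+ CD8, 2.59 in Innate-like T#2 and 1.18 in Cytotoxic CD8 cells, and the pair of tiles at chr9:118416001-118417000, 61.2 to 61.7 kb away, had 51 and 96 PD1+ CD8 fragments in the tumor and 24 and 30 in the cecum, against 0 and 9 and 2 and 5 in Cytotoxic CD8. The 6 Pbx3 tiles were as open in Tfh-like cells, at 7.5 FPM, as in PD1+ CD8 cells, at 5.8. The 7 tiles nearest to 1700017B05Rik averaged 6.6 in Innate-like T#2, 5.6 in PD1+ CD8 and 0.8 in Cytotoxic CD8 cells. The 6 nearest to Rap1gap2, which encodes a GTPase-activating protein for Rap, averaged 5.5 in newly activated CD4, 3.4 in PD1+ CD8 and 0.9 in Cytotoxic CD8 cells. That newly activated CD4 value rests on 14 fragments, against 73 in PD1+ CD8 cells. In the tumor the order was reversed, with 3.39 in newly activated CD4 and 5.39 in PD1+ CD8 cells. The 7 tiles nearest to S1pr1, the sphingosine 1-phosphate receptor used to leave tissue, were most open in CCR7+ CD4 (14.4 FPM) and CCR7+ CD8 cells (12.4 FPM), with 6.3 in PD1+ CD8 and 2.4 in Cytotoxic CD8 cells. The 5 tiles nearest to Klf2, a factor that drives S1pr1, went the same way, with 6.5 in CCR7+ CD8, 4.3 in PD1+ CD8 and 1.9 in Cytotoxic CD8 cells. None of the S1pr1 or Klf2 tiles was of the kind open 3-fold over CCR7+ CD8.

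Cytokine and costimulatory genes had tiles that were as open or more open in other labels. The 4 tiles 15.8 to 19.3 kb from Il10, the gene of an anti-inflammatory cytokine, averaged 16.6 FPM in cecum IL10+ Treg, 9.2 in PD1+ CD8 and 2.8 in Cytotoxic CD8 cells. The 3 tiles nearest to Icos, a costimulatory receptor gene, averaged 10.7 in Th17, 9.4 in PD1+ CD8, 8.0 in Rorgt gdT and 3.5 in Cytotoxic CD8 cells. The 3 tiles nearest to Ifng averaged 6.9 in Innate-like T#2 and 3.4 in PD1+ CD8 cells. Away from named immune genes, a tile 35.2 kb from Gpcpd1 was the highest of all for IL10+ Treg, with 42.2 FPM in the cecum against 9.16 in PD1+ CD8 and 3.54 in Cytotoxic CD8 cells.

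**Figure D5:**
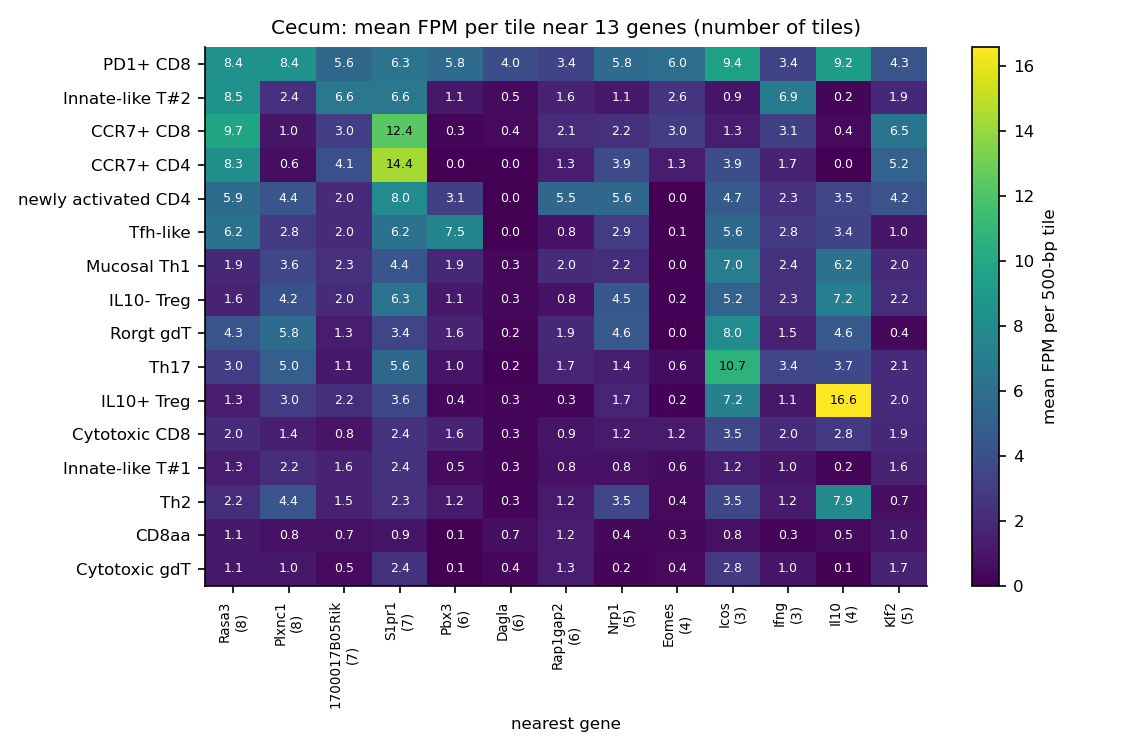
Mean FPM per 500-bp tile in the cecum (colour and printed value) for 16 labels (rows; PD1+ CD4 with 14 cells is left out) over the tiles nearest to 13 genes (columns, with the number of tiles). Dagla is at 4.0 in PD1+ CD8 and at most 0.7 elsewhere, S1pr1 is highest in CCR7+ CD4 at 14.4 and Il10 in IL10+ Treg at 16.6.

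The tiles nearest to genes of 7 functional lists were counted. Of the 116 distal tiles with 30 fragments nearest to 14 inhibitory receptor and ectoenzyme genes, 1 (0.862%) was in the set, a tile near Tigit with 30 and 2 fragments in the tumor and 5 and 5 in the cecum. The share over all genes was 2.39%, and with so few tiles no difference from it can be read. None of the 21 tiles nearest to Pdcd1, which encodes PD-1, was in it, and their median log2 ratio was 0.30 in the tumor and 0.99 in the cecum. Of 21 transcription factors of exhausted or activated CD8 cells, 6 had 11 tiles of 369 (2.98%), namely Eomes with 4, Tox and Nfatc1 with 2 each, and Batf, Egr2 and Prdm1 with 1 each. Of these 11 tiles 10 were above Cytotoxic CD8 in the cecum, with a median log2 ratio of 1.60. The highest of them in the cecum was the Eomes tile, and that in Prdm1 was level with 2 and 2 fragments.

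Costimulatory receptor genes had 4 of 73 tiles (5.48%), with 3 for Icos and 1 for Cd28. Cytokine, chemokine and receptor genes had 8 of 184 (4.35%), with 4 for Il10, 3 for Ifng and 1 for Il10ra. Residency genes had 3 of 161 (1.86%), with 2 for Runx3 and 1 for Itgae. Naive and memory genes had 5 of 232 (2.16%), with 2 for Bach2 and 1 each for Ccr7, Cxcr5 and Lef1. The list of effector and circulating genes had the largest share of the 7, 19 of 154 (12.3%), and 12 of the 19 were nearest to S1pr1 and Klf2, which guide cells out of tissue and are not cytotoxic genes. Among the rest were 2 for Tbx21 and 1 each for Cx3cr1, Itgb1 and Zeb2, the last 1254 kb away. None lay nearest to a granzyme or perforin gene of the list. The tiles counted there were few, 12 for Gzmb, 5 for Gzmk and 3 for the perforin gene Prf1. At the share of 2.39% over all genes, no depletion can be read from so few tiles. In that list 17 of the 19 tiles were above Cytotoxic CD8 in the cecum, with a median log2 ratio of 1.32.

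The labels were checked against fragments over marker genes, counted from 5 kb before to 5 kb after each gene. Pdcd1 had 180 FPM in tumor PD1+ CD8 and 133 in tumor Cytotoxic CD8 cells, and 166 and 92.7 in the cecum. Tox had 282 and 182 in the tumor and 254 and 180 in the cecum. Entpd1, the CD39 gene of exhausted cells, had 180 and 139, and 166 and 113. Havcr2, which encodes TIM-3, went the other way with 75.4 and 95.1, and 61.9 and 85.9, and Cd8a was nearly equal with 89.96 and 86.6, and 95.5 and 95.3. Summed over 6 markers of PD1+ cells the values were 928 and 753 FPM in the tumor and 864 and 660 in the cecum. This sum did not set PD1+ CD8 apart from all other labels. It was higher in IL10- Treg (1152 in the tumor and 1274 in the cecum), IL10+ Treg (1001 and 1023), Tfh-like (1017 and 1019) and PD1+ CD4 cells (1154 and 1099), and in cecum Th2 cells (883). The remaining labels were lower. Over 5 markers of cytotoxic cells PD1+ CD8 and Cytotoxic CD8 had 371 and 364 FPM in the tumor, and 363 and 371 in the cecum. Accessibility over these genes thus did not set the cytotoxic label apart from PD1+ CD8. Of these 5, the granzyme gene Gzma was higher in Cytotoxic CD8 cells, with 62.1 against 47.2 in the tumor and 56.4 against 52.2 in the cecum. In the tumor the other markers of this list together went the other way, since the sum over all 5 was higher in PD1+ CD8 cells.

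Fragments were also found over markers of other cell types, and the lists were not uniformly low. Over PD1+ CD8 and Cytotoxic CD8 cells of both libraries, the 5 B cell markers summed to 139 to 166 FPM, the 6 myeloid to 219 to 251 and the 6 epithelial to 137 to 165, beside 142 to 163 for the 3 markers of CD4 T cells. Most of the signal lay over Cd79a, Cd68, Itgam, Spi1 and Cdh1, while Lyz2, Ms4a1, Csf1r, Krt18 and Cdx2 had at most 5.02 FPM in any of the 4 groups. The myeloid sum was 249 in PD1+ CD8 and 219 in Cytotoxic CD8 cells of the tumor and 251 and 229 in the cecum. Their part in the results was not tested. Depth was 62118519 labelled fragments in the tumor and 43980981 in the cecum, with medians of 5846 and 4374 per cell. PD1+ CD8 contributed 9148760 and 3602160 fragments and Cytotoxic CD8 3754731 and 3388341, so a tile at the cecum median of 16 and 6 fragments is not by itself precise. There were 84 cell barcodes labelled in both libraries, and without them 886 tiles passed the rule, of which 830 were above Cytotoxic CD8 in the cecum.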

How the data were processed

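Sorted T cells of AKP tumors and of adjacent cecum were profiled in 1 multiome library each. The authors deposited ATAC fragment lists, whole-number counts of read pairs per fragment and cell barcode, made with Cell Ranger ARC 2.0.0 on mm10 per the file headers, and a table of cell labels, which they drew from clusters of the RNA. Deposited RNA counts were not used here. Fragments of labelled cells on chromosomes 1 to 19, X and Y were kept (66.2% of the cecum and 64.3% of the tumor fragments), each counted once in a 500-bp tile that held either of its ends. Label sums were scaled to FPM, and ratios carry exact conditional (Clopper-Pearson) intervals. Gene spans were those of 21883 protein-coding genes of RefSeq GRCm38.p6, and sequence was read only from RefSeq's table of start windows of that build. Neither a doublet caller nor a filter on cells was applied beyond the labels.

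The members, lists and subsets were chosen with earlier results of these data known. The tiles named are the 10 with most tumor PD1+ CD8 fragments, the 10 with the highest smaller ratio of both libraries and the 5 with the lowest cecum ratio among those with 20 cecum fragments, the 5 highest and 5 lowest tumor over cecum ratios, 3 on each side of the fold, the highest of each label other than CD8, and those of the 8 genes with most tiles and of the fixed lists; 1 gene of the lists is not reported here. Alternatives changed the cells, scaling, pseudocount, minimum, fold, distance from genes and counting of fragments. The counter was tested on simulated fragments, and the intervals on simulated counts with counting error only (Poisson). There 96.3% of intervals over 37497 tiles held the simulated ratio of cecum PD1+ CD8 over Cytotoxic CD8. Exact 95% intervals are built to do so for such counts, and variation between cells or libraries was not simulated. Python 3.11.15, numpy 2.4.6, pandas 2.3.3, scipy 1.17.1 and matplotlib 3.10.9 were used.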

Additional observations from a re-analysis of the deposited data

Results flagged for a closer look

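The tile within Katna1 at chr10:7727001-7727500 had ratios in opposite directions in the tissues. It was picked as the lowest cecum ratio among the 518 tiles with at least 20 fragments over both cecum labels. The upper end of its counting interval lay close to equality. Its log2 ratio of PD1+ CD8 over Cytotoxic CD8 was 2.08 in the tumor, where it chose the tile, and -1.03 in the cecum. The difference between the tissues was not tested, since each has 1 library. Of the tiles named, 15 had a cecum ratio below equality, and in 1 of them, this tile, the counting interval lay below it.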

How the results depend on the processing

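The number of tiles depended on the rule's settings, while cecum PD1+ CD8 stayed above Cytotoxic CD8 in most tiles under each alternative run. With 2 FPM added in place of 0.5, 149 tiles passed, of which 98.7% were above in the cecum and 39 reached 3-fold, with a log2 ratio of 1.77 over them together. With a minimum of 60 fragments, 314 passed, 97.5% were above, 135 reached 3-fold, the median cecum log2 ratio was 1.43 and the median of tumor over cecum PD1+ CD8 was 0.26. With a fold of 2, these were 3096, 87.8%, 566, 0.82 and 0.25, and with a fold of 4, 364, 96.4%, 176, 1.54 and 0.34. With cells of at most 3 times the median fragment count, 91.7% were above. The median of tumor over cecum PD1+ CD8 was 0.22 with these cells and 0.24 with scaling by fragments near gene ends, and among tiles with 20 cecum fragments 96.3% were above, with a median of 1.34. Scaling near gene ends also turned IL10+ Treg in the cecum from log2 0.07 to -0.0099 over Cytotoxic CD8. The causes were not tested. Leaving out the largest cells kept 518 of its 782 tiles in common with the 895, and counting fragments by midpoint 500 of 668. Removing barcodes shared by the libraries and the split by CCR7+ CD8 were added after the data were seen. Of 417 values of named tiles, 413 moved by less than their counting interval. No paired analysis was possible because each tissue has 1 library and no result comes from a test, and for that reason no replicate could be left out. Depth limits single tiles, whose cecum median was 16 against 6 fragments.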
